A study of Mus musculus with 6 samples.

Results

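Hox genes encode homeodomain transcription factors that give cells their position along the head-to-tail axis, and in the mouse they sit in 4 clusters, HoxA to HoxD. Within a cluster the genes at the 3′ end act early and towards the head and those at the 5′ end late and towards the tail, and genes at the same place in different clusters form a paralogue group, numbered from the 3′ end. In pluripotent cells the clusters are known to be held down by Polycomb complexes, which mark and compact their chromatin, until signals such as retinoic acid open them. The Hox genes described here are the gene symbols in the count table made of Hox, a cluster letter from a to d and a number, which gave 39 genes of 23420 symbols: 11 in HoxA, 10 in HoxB, 9 in HoxC and 9 in HoxD.

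RNA sequencing was done on mouse embryonic stem (ES) cells, pluripotent cells from the early embryo, that carried a stably integrated lentivirus. The virus expressed wild-type KBP in replicates 1, 2 and 3 and, in replicates 4, 5 and 6, the mutant KBP(KK/RR), described in the labels as stable. KBP, the Kif1-binding protein, binds kinesin motors. The cells were grown under self-renewing conditions, and the question was which transcripts are higher or lower with the mutant protein than with the wild-type one. Both groups carried a KBP virus, so cells without virus were not compared. The labels name no ES cell line, genetic background, promoter of the virus or number of clones, and do not say whether the replicates were separate cultures. The p-values therefore measure only the spread between these libraries, which may be technical. As the libraries are bulk samples, fewer cells of a type and less RNA per cell cannot be told apart.

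Library totals ran from 24131743 to 32160411 counts. The KBP gene (2510003E04Rik in the files) stood at 48.3 ± 1.30 CPM (counts per 1000000 counted in genes, on totals scaled by the trimmed mean of M-values, TMM; mean ± SD, n = 3) with wild-type KBP and 56.6 ± 2.88 CPM with KBP(KK/RR). Its log2 fold change was 0.23 (edgeR adjusted p = 0.0133), and whether these reads come from the virus or from the cells' own gene was not tested. The summed level of 12 pluripotency markers was 7300 to 7410 CPM in the wild-type KBP libraries and 7175 to 7440 CPM in the KBP(KK/RR) libraries, with no marker at 0. The 10 fibroblast or feeder markers summed to 44.2 to 48.5 and 44.5 to 45.1 CPM, and of these Lum had 1 count in all 6 libraries together. The 9 markers of mesoderm and primitive streak summed to 14.3 to 16.3 CPM with wild-type KBP and 16.9 to 18.6 CPM with KBP(KK/RR), the 8 of primitive endoderm to 123 to 144 and 105 to 116 CPM, and the 8 neural ones to 211 to 217 and 207 to 215 CPM. The streak and primitive endoderm sums did not overlap between the groups, but each did without 1 gene: without T the streak sum was 9.72 to 12.4 and 11.1 to 12.0 CPM, and without Col4a1 the primitive endoderm sum was 18.3 to 21.7 and 15.9 to 18.8 CPM. Over all tested genes, taken singly, 22.4% did not overlap between the groups. By the edgeR test used throughout, T rose, and Pdgfra and Col4a1 of primitive endoderm, Ncam1 of the neural list and Tfcp2l1 of the pluripotency list fell. Of these 5 calls, Tfcp2l1 was the 1 that held with each library left out in turn. The markers tested were 12 of pluripotency, 6 neural, 8 of streak, 7 of primitive endoderm and 5 of fibroblasts or feeders. Of all tested genes, 3.12% were called. With a trend on transcript length and GC content removed, Col4a1 lost its call (adjusted p = 0.0864), and Klf2 and Map2 gained one upwards (4.70e-04 and 0.0415). Klf2 also passed with upper-quartile scaling (0.0438). The part of these markers in the Hox values was not tested.

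Hox transcripts were scarce in both groups, and no Hox gene passed the test between them. All 39 Hox genes had a count in at least 1 library and 34 had one in every library. Together they held 4262 counts, which were 683, 752 and 622 in wild-type KBP replicates 1, 2 and 3 and 748, 640 and 817 in KBP(KK/RR) replicates 4, 5 and 6. On the CPM scale the Hox sum was 26.1, 23.4 and 25.9 with wild-type KBP and 25.1, 26.1 and 27.5 with KBP(KK/RR). The ranges overlapped, with replicate 2 the lowest and replicate 6 the highest of the 6 libraries. The 5 genes at 0 in at least 1 library were Hoxa6, Hoxb5, Hoxc5, Hoxc11 and Hoxd3. A count of 0 allows a level of up to 0.0933 to 0.124 CPM on the unscaled total, depending on the library (3 counts of that total, counting error only).

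The reads were spread unevenly over the genes. Hoxc13, Hoxb9 and Hoxd13 held 1370 counts, or 32.1% of all Hox counts, while 31 of the 39 genes had under 100 counts over the 6 libraries and 23 had under 50. Per kilobase of the longest annotated transcript, a scale on which genes can be compared, Hoxc13 stood at a mean of 1.39 CPM per kilobase. Hoxb9 stood at 1.02, Hoxd13 at 0.880 and Hoxa10 at 0.692. The lowest were Hoxd3 at 0.00742 and Hoxc5 at 0.0114 CPM per kilobase. In the annotation 14 of the 39 Hox genes, among them Hoxd3, Hoxc5 and Hoxa6, are overlapped by another gene on the same strand. Reads in such shared parts are uncertain, and their share in these low values was not tested. Among the 38 genes compared in this order, 1 of the 37 neighbouring pairs was apart in all 6 libraries, Hoxc13 from Hoxb9. From Hoxb9 downward, each gene overlapped the next in level over the 6 libraries. The median over all 39 Hox genes was 0.107 CPM per kilobase, against 6.61 for the genes tested, and all 39 lay below that value. The 2 sets are unlike, as the genes tested had to pass a filter on low counts and 26 of the Hox genes did not. Hoxc13 lay above 53.7% of the 23028 symbols with an annotated length.

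**Figure D1:**
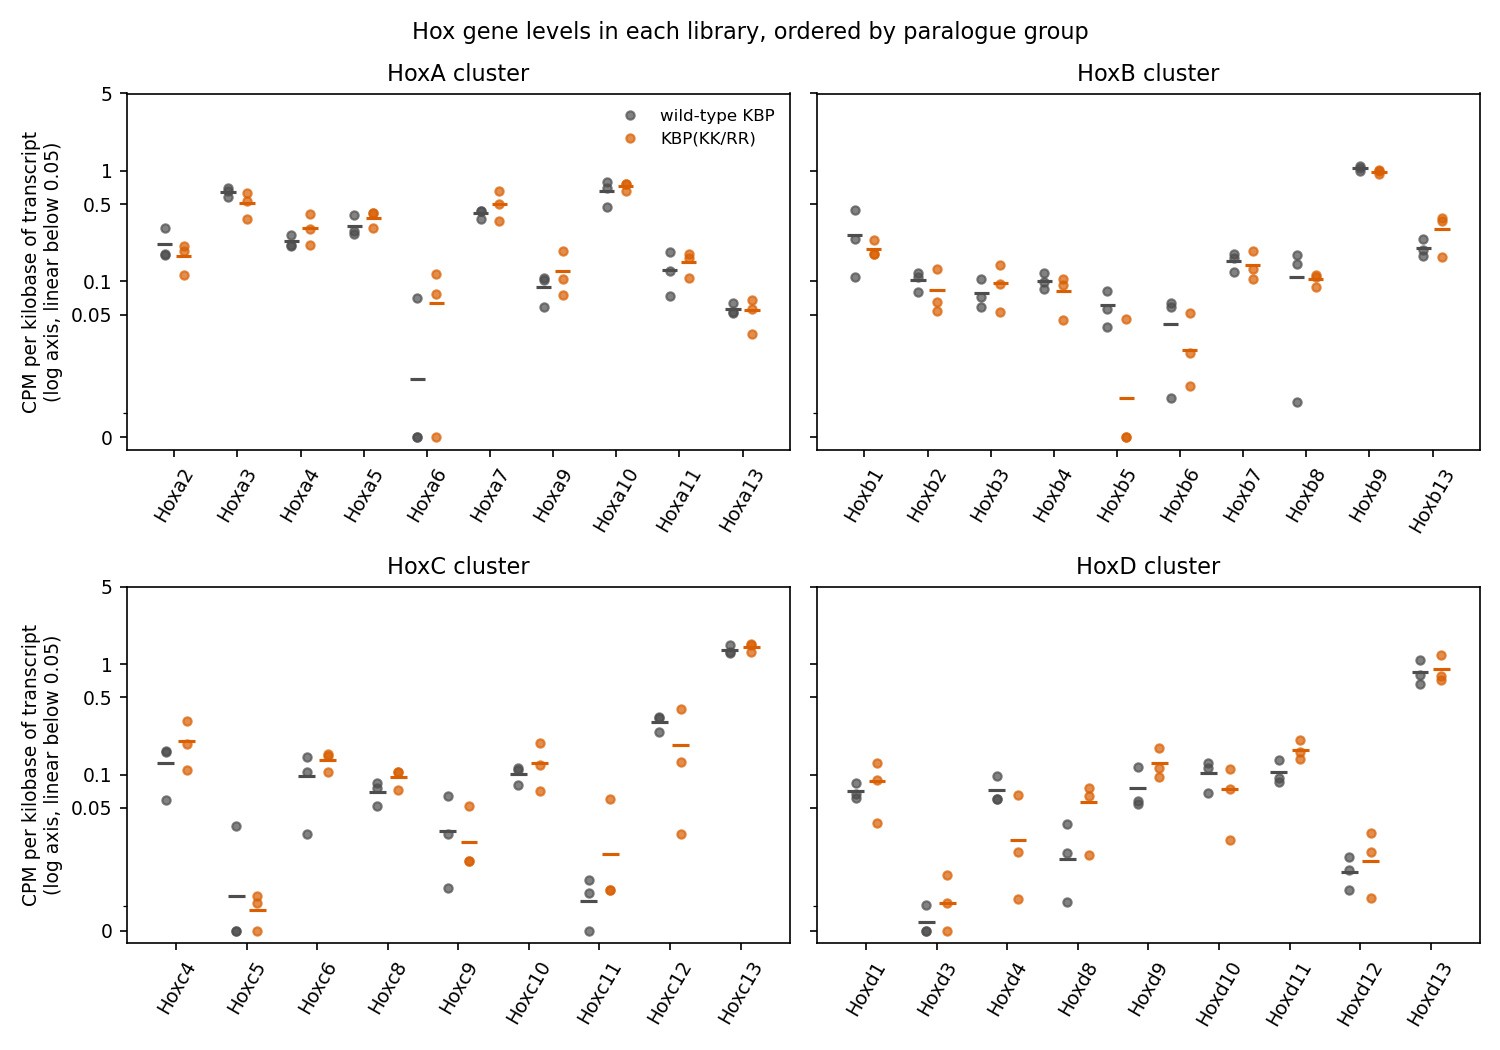
Level of 38 Hox genes in CPM per kilobase of transcript (log axis above 0.05, linear below), by cluster and in the order of the paralogue groups. Each point is 1 library, 3 with wild-type KBP and 3 with KBP(KK/RR), and bars are group means. Hoxb9, Hoxc13 and Hoxd13 are the highest genes of HoxB, HoxC and HoxD in both groups.

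HoxB, HoxC and HoxD differed in where their highest gene lay. In HoxB (chr11:96194316-96368256 on GRCm38) it was Hoxb9, which held 51.5% of the cluster's counts. In HoxC (chr15:102921103-103036852) and HoxD (chr2:74668310-74765142) it was the gene at the 5′ end, Hoxc13 with 71.8% and Hoxd13 with 62.2%. By paralogue group, group 13 held 24.6% of all Hox counts, and the fewest were in group 6 (1.17%) and group 12 (1.24%). Group 9, which holds Hoxb9, had 12.8%.

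Within HoxD the neighbours Hoxd13 and Hoxd12, which have no annotated overlap with each other or with another gene, lay far apart in level. Hoxd12 had 2, 2 and 1 counts with wild-type KBP and 1, 2 and 3 with KBP(KK/RR), where Hoxd13 had 48 to 89. The 250 bases before the RefSeq start of each gene (GRCm38.p6, plus strand) are shown to let these neighbours be compared; the pair was chosen after the values were seen. The Hoxd13 window is chr2:74667975-74668224 and the Hoxd12 window chr2:74674763-74675012, and capitals mark CpG dinucleotides.
Hoxd13: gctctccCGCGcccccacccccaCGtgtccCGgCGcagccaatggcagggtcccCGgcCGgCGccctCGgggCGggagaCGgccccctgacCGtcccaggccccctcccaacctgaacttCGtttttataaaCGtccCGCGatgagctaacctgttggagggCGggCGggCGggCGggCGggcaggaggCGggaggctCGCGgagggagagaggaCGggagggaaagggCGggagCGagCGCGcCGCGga
Hoxd12: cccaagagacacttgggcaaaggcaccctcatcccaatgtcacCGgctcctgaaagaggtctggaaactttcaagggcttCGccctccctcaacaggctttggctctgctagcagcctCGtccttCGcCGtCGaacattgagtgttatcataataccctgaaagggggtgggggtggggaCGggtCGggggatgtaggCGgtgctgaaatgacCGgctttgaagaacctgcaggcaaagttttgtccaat
The Hoxd13 window held 31 CpG and the Hoxd12 window 10. Other Hox windows ran the other way. Hoxa13 held the most CpG, 35, at 0.0558 CPM per kilobase, and Hoxa7 held 7 at 0.458. Whether CpG content goes with level was not tested. RefSeq windows were found for 22 of the 39 Hox genes, 24 windows in all, with a median of 12.5 CpG (range 2 to 35) against 6 over the 32851 windows of all genes. The letters TGATNNAT, a form of the joint Pbx and Hox site, were searched on both strands and were present in 4 Hox windows (16.7%) and in 7.68% of all windows. The Hoxd13 and Hoxd12 windows held none. These are properties of the reference sequence, and no chromatin or methylation was measured.

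Expression was compared with edgeR's quasi-likelihood test over 14340 genes that passed its filter on low counts, and an adjusted p (Benjamini-Hochberg, over all genes tested) under 0.05 was called. A positive log2 fold change means a higher level in the KBP(KK/RR) libraries, and each is given with its standard error (SE). Of the 39 Hox genes, 13 passed the filter and 0 were called, against 448 of all tested genes, or 3.12% (151 higher and 297 lower with TMM scaling, 235 and 205 with upper-quartile scaling). At an unadjusted p under 0.05 the Hox count was also 0, where all tested genes gave 18.6%. The smallest edgeR adjusted p of a Hox gene was 0.302. DESeq2, another count model, gave an adjusted p for 0 of the 39 and an unadjusted p under 0.05 for 0, and limma-voom, a linear model on log counts, called 0, with 0 under an unadjusted p of 0.05. Hox genes lie low in the table, and of the 3346 tested genes no higher in mean log2 CPM than Hoxc13, 36 (1.08%) were called. As a description, the log2 fold change was positive in 10 of the 13 tested Hox genes, with a median of 0.17, against 49.2% positive and a median near 0 over all tested genes. The filter bears on that count. Hoxa4, Hoxa11, Hoxb1 and Hoxd11 were over its minimum in more KBP(KK/RR) than wild-type libraries, and all of them but Hoxb1 were positive. With every gene of at least 1 count fitted, 23 of the 39 Hox genes were positive and 16 negative.

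The intervals show what this depth could resolve. The 95% interval of the fold change lay within 1.5-fold either way for 5 of the 13 tested genes and within 2-fold for 8. Hoxc13 and Hoxb9 had narrow ones, from -0.17 to 0.37 and from -0.40 to 0.18 on the log2 scale. Hoxb1 had one of the widest, from -1.22 to 0.42. A p that misses the threshold does not show that the groups were alike, and the 26 Hox genes under the filter had no test in this fit.

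**Figure D2:**
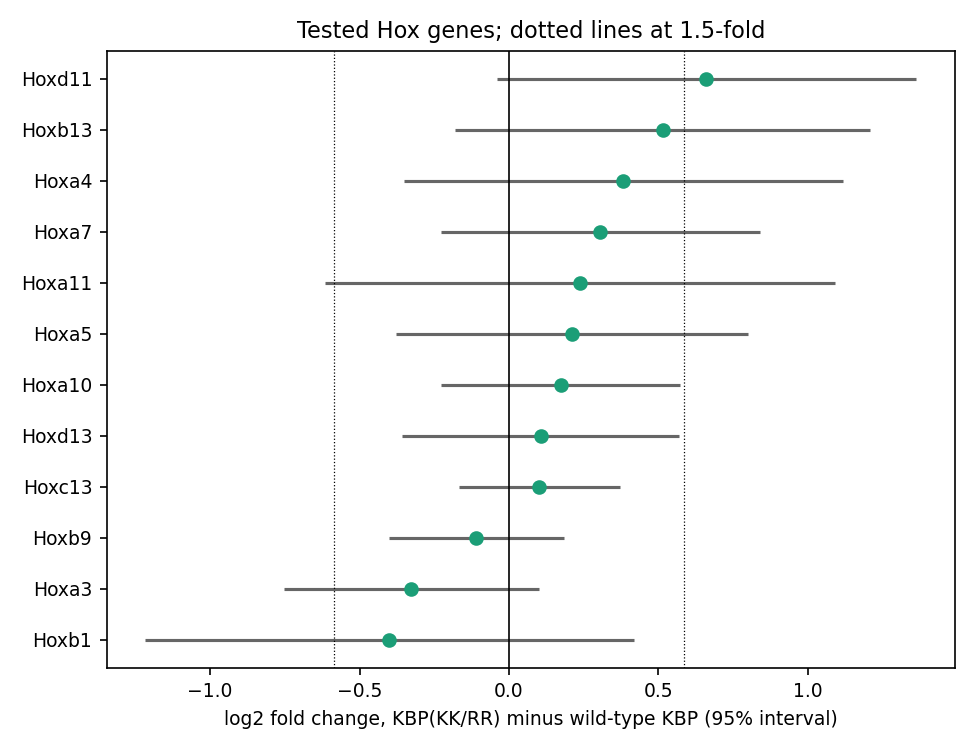
Log2 fold change, KBP(KK/RR) minus wild-type KBP, of 12 of the 13 Hox genes that passed the filter, with 95% intervals from edgeR and dotted lines at 1.5-fold. Every interval includes 0, and of those plotted Hoxc13 and Hoxb9 have the narrowest.

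Among the HoxA genes, Hoxa3, needed for the thymus and parathyroid, had 44, 48 and 43 counts with wild-type KBP and 28, 34 and 48 with KBP(KK/RR). Only KBP(KK/RR) replicates 4 and 5 were below the wild-type range in CPM, and replicate 6 lay within it (log2 fold change -0.33, SE 0.21, edgeR adjusted p = 0.414). For Hoxa4 the counts were 11, 11 and 8 with wild-type KBP and 14, 16 and 10 with KBP(KK/RR). Its groups overlapped through replicate 6 of KBP(KK/RR) (log2 fold change 0.38, SE 0.36, edgeR adjusted p = 0.599). Hoxa4 and Hoxa3 overlap each other on the same strand in the annotation, so reads in their shared part are uncertain.

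Hoxa7, which helps pattern the trunk skeleton, had 23, 24 and 21 counts with wild-type KBP and 40, 25 and 21 with KBP(KK/RR). Replicate 4 was the highest of the 6 libraries and replicate 6 the lowest in CPM, both in the KBP(KK/RR) group (log2 fold change 0.31, SE 0.26, edgeR adjusted p = 0.555). Without replicate 4 the log2 fold change of Hoxa7 was 0.038, and without replicate 6 it was 0.53. Hoxa10, needed for lumbar vertebrae and the uterus, had 47, 39 and 49 counts with wild-type KBP and 50, 48 and 58 with KBP(KK/RR). The groups overlapped, with wild-type KBP replicate 2 the lowest; the log2 fold change of Hoxa10 was 0.17 (SE 0.19, edgeR adjusted p = 0.677) with that library and -0.041 without it. The other tested HoxA genes, Hoxa5 and Hoxa11, had log2 fold changes of 0.21 (SE 0.28) and 0.24 (SE 0.41). Summed over the cluster, HoxA stood at 12.0 ± 1.27 CPM with wild-type KBP and 12.6 ± 0.510 CPM with KBP(KK/RR), a difference below the spread of the wild-type libraries.

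In HoxB, Hoxb1, which marks a segment of the hindbrain, had 6, 16 and 22 counts with wild-type KBP and 11, 12 and 11 with KBP(KK/RR). The wild-type libraries spread on both sides of the mutant ones (log2 fold change -0.40, SE 0.39, edgeR adjusted p = 0.623), and without wild-type KBP replicate 3 the log2 fold change of Hoxb1 was 0.10. Hoxb9, a gene of the thoracic region, had 75, 87 and 62 counts with wild-type KBP and 76, 64 and 72 with KBP(KK/RR). Its levels were 2.72 ± 0.143 and 2.53 ± 0.0970 CPM, and overlapped (log2 fold change -0.11, SE 0.14, edgeR adjusted p = 0.722). Hoxb13, the gene at the 5′ end and known from the prostate and tail, had 11, 17 and 9 counts with wild-type KBP and 11, 20 and 23 with KBP(KK/RR). Replicates 5 and 6 stood above all wild-type libraries and replicate 4 below them in CPM (log2 fold change 0.51, SE 0.34, edgeR adjusted p = 0.430). The HoxB sum was 5.29 ± 0.312 CPM with wild-type KBP and 4.94 ± 0.490 CPM with KBP(KK/RR).

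Hoxc13, which controls keratin genes of hair and nail, had 82, 117 and 74 counts with wild-type KBP and 110, 78 and 111 with KBP(KK/RR). The groups overlapped at 3.29 ± 0.309 and 3.54 ± 0.308 CPM (log2 fold change 0.10, SE 0.13, edgeR adjusted p = 0.720). Hoxc12 and Hoxc4, the next highest of HoxC per kilobase, did not pass the filter. The counts of Hoxc12 were 9, 8 and 8 with wild-type KBP and 12, 1 and 4 with KBP(KK/RR), and those of Hoxc4 were 9, 11 and 3 and 7, 16 and 12. In both genes the KBP(KK/RR) libraries differed among themselves by more than the group means did. The HoxC sum was 4.53 ± 0.395 CPM with wild-type KBP and 5.01 ± 0.114 CPM with KBP(KK/RR), and the groups overlapped through wild-type KBP replicate 2.

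Of the HoxD genes, Hoxd13, which shapes the digits, had 71, 53 and 48 counts with wild-type KBP and 53, 48 and 89 with KBP(KK/RR). Replicate 6 was the highest and wild-type KBP replicate 2 the lowest in CPM (2.12 ± 0.544 and 2.25 ± 0.656 CPM). The log2 fold change of Hoxd13 was 0.11 (SE 0.22, edgeR adjusted p = 0.835), and it turned to -0.067 when wild-type KBP replicate 2 was left out and to -0.17 when KBP(KK/RR) replicate 6 was. Hoxd9 did not pass the filter, with 3, 4 and 6 counts against 11, 6 and 6. The HoxD sum was 3.29 ± 0.667 CPM with wild-type KBP and 3.73 ± 0.709 CPM with KBP(KK/RR).

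Hoxd11, which with its paralogues patterns the forearm and the kidney, was the 1 Hox gene of 39 whose groups did not overlap in CPM. It was thus 1 of the 13 tested Hox genes, against 22.4% of all tested genes whose groups did not overlap. It had 12, 10 and 7 counts with wild-type KBP and 14, 17 and 16 with KBP(KK/RR), or 0.459, 0.312 and 0.292 CPM against 0.470, 0.694 and 0.539 CPM. The highest wild-type library and the lowest mutant one were close together. Its log2 fold change was 0.66 (SE 0.34, 95% interval -0.04 to 1.36, unadjusted p = 0.0640, edgeR adjusted p = 0.302). Hoxd11 passed the filter through the KBP(KK/RR) libraries, where all 3 were above the filter's minimum of 0.358 CPM and 1 of the wild-type libraries was. Hoxb1 was the other gene over that minimum in all 3 KBP(KK/RR) libraries and under it in some wild-type ones, and 9 of the 13 tested genes were over it in all 6 libraries. A predicted gene, Gm28309, overlaps Hoxd11 on the same strand.

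**Figure D3:**
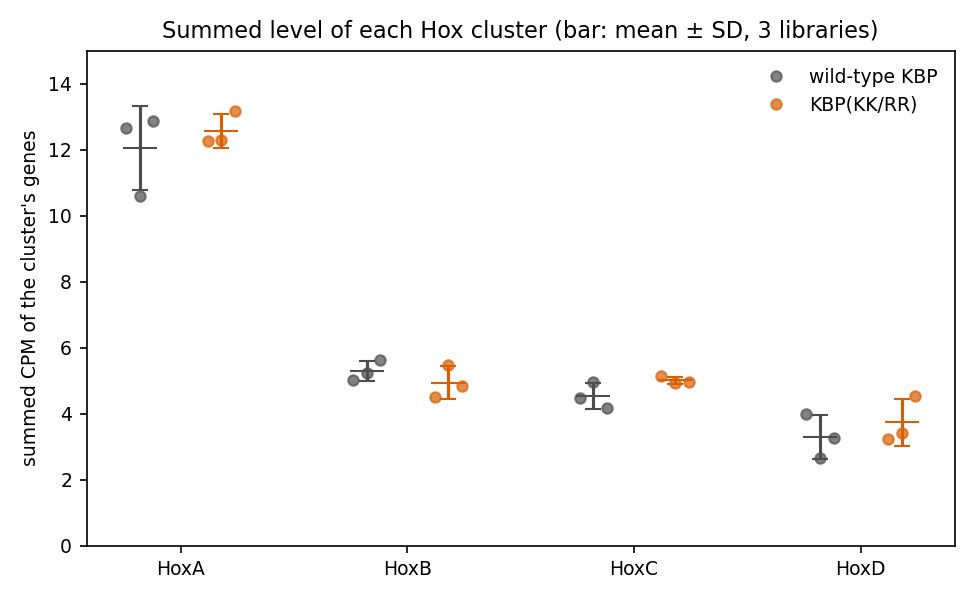
Summed CPM of the genes of each Hox cluster in each library (points), with the mean ± SD of 3 libraries per group (bars). HoxA holds the largest share of the Hox counts, at 12.0 and 12.6 CPM, and in each cluster the ranges of the groups overlap.

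With every gene of at least 1 count tested (19060 genes), all 39 Hox genes could be fitted. Of them 0 were called, where 5.07% of all genes were, and 1 had an unadjusted p under 0.05, where 16.3% of all genes did. That gene was Hoxb5, chosen here after its values were seen, with 6, 5 and 3 counts with wild-type KBP and 0, 0 and 4 with KBP(KK/RR). The groups overlapped through replicate 6, and edgeR's quasi-likelihood fit across all genes gave Hoxb5 an adjusted p = 0.241. With the counts of each group pooled, KBP(KK/RR) stood at 0.280 times the wild-type KBP level (95% interval 0.0670 to 0.891, exact binomial). That interval covers counting error only and leaves out the spread between libraries, so it is no test of a difference. In this fit 23 Hox genes had a positive and 16 a negative log2 fold change, with a median of 0.17.

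The 4 clusters also hold non-coding RNAs, of which 10 of 18 listed had a row in the count table. Of these 2 were tested and 0 called, where 3.12% of all tested genes were. Mir196a-1, a hairpin locus of HoxB, had 33, 58 and 32 counts with wild-type KBP and 41, 38 and 49 with KBP(KK/RR), while Mir10a, Mir10b, Mir196a-2 and Mir615 were at 0 in all 6 libraries. Mir196a-1 overlapped between the groups (log2 fold change 0.03, SE 0.20, edgeR adjusted p = 0.953). As these were libraries of longer RNA, reads at a hairpin do not measure the mature miRNA. MiR-196 is known to act on Hox transcripts, and its mature forms are shown with the seed (bases 2 to 8) in capitals, from RefSeq.
mmu-miR-196a-5p: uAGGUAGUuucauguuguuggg
mmu-miR-196b-5p: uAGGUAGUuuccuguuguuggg
Both share 1 seed. The locus of the second, Mir196b in HoxA, had 0, 1 and 1 counts with wild-type KBP and 1, 0 and 0 with KBP(KK/RR). Hoxa11os (Hoxa11as in the files), the antisense RNA of Hoxa11, had 10, 17 and 6 counts and 6, 7 and 13 (log2 fold change -0.37, SE 0.40, edgeR adjusted p = 0.668), and Hotair, an RNA of HoxC, 1, 1 and 1 and 2, 0 and 0. In the annotation 14 Hox genes are overlapped by a gene on the other strand, among them Hoxa11 by Hoxa11os. The strand setting of the counting is not given in the sources used here, so reads of such pairs cannot be told apart.

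Genes that act with or upstream of Hox genes were read from the same fit, in which 3.12% of all tested genes were called. In lists this short, 0 calls do not set the members apart from that share. Of the 9 TALE cofactors, which bind DNA together with Hox proteins, 9 were tested and 0 called, with Pknox2 (log2 fold change 0.36, edgeR adjusted p = 0.0749) and Meis2 (0.18, adjusted p = 0.231) at the smallest p. Of the Cdx factors, which switch on trunk Hox genes, and the related ParaHox genes, 4 of 6 were tested and 0 called (Gsx1 -0.35, adjusted p = 0.216, and Cdx1 -0.29, adjusted p = 0.498). Of 17 tested genes of the retinoic acid response, 0 were called (Stra8 -0.28, adjusted p = 0.117, and Crabp1 0.23, adjusted p = 0.122). With a smooth trend on transcript length and GC content removed from each library, Pknox2 and Stra8 passed the threshold, at edgeR adjusted p = 0.0492 and 0.0475.

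The Polycomb complexes, which repress Hox clusters, gave 1 call, where 3.12% of all tested genes were called. Of the 19 genes of PRC1, the complex that compacts chromatin, 19 were tested and 0 called, with Phc3 at -0.20 (edgeR adjusted p = 0.355) and Pcgf2 at -0.07 (adjusted p = 0.380). Of the 12 tested genes of PRC2, which methylates histone H3 at lysine 27, 0 rose and 1 fell. This was Jarid2, a subunit that guides the complex, at 653, 679 and 680 CPM with wild-type KBP and 621, 605 and 600 CPM with KBP(KK/RR), with no overlap. Jarid2 had a log2 fold change of -0.14 (SE 0.04, edgeR adjusted p = 0.0379). Of all tested genes, 22.4% did not overlap between the groups.

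The list of MLL and COMPASS genes holds methyltransferases of histone H3 at lysine 4, their subunits and partners, and other factors that act with them or against Polycomb. Of 16 tested, 0 were higher and 3 lower, where 3.12% of all tested genes were called. Kmt2b (Wbp7 in the files), a methyltransferase, stood at 246, 264 and 263 CPM with wild-type KBP and 229, 223 and 197 CPM with KBP(KK/RR) (log2 fold change -0.25, SE 0.05, edgeR adjusted p = 0.00853). Setd1b, another, was at 96.2, 104 and 103 CPM and 88.9, 87.0 and 78.9 CPM (-0.25, SE 0.05, adjusted p = 0.00572). Kdm6b, which removes the Polycomb mark, was at 89.3, 91.3 and 90.5 CPM and 79.0, 81.0 and 78.2 CPM (-0.19, SE 0.04, adjusted p = 0.0183). In these 3 genes each KBP(KK/RR) library lay below each wild-type one, and over all tested genes 22.4% of groups did not overlap. With the length and GC trend removed, these calls and that of Jarid2 were lost, at edgeR adjusted p = 0.542 for Jarid2, 0.241 for Kmt2b, 0.357 for Setd1b and 0.526 for Kdm6b. Jarid2 also lost its call with upper-quartile scaling (adjusted p = 0.0685).

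Single libraries also mattered to these 4 calls. Without KBP(KK/RR) replicate 6 the edgeR adjusted p was 0.189 for Jarid2, 0.0649 for Kmt2b, 0.0797 for Setd1b and 0.109 for Kdm6b. Without wild-type KBP replicate 2 it was 0.209 for Jarid2 and 0.121 for Kdm6b, and without wild-type KBP replicate 3 0.0780 for Jarid2 and 0.0700 for Kmt2b. Without KBP(KK/RR) replicate 5 it was 0.0990 for Jarid2.

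Of 42 tested protein-coding neighbours within 500 kb of a cluster, 3 were called (7.14%, against 3.12% of all tested genes). Near HoxB, 15 were tested and 1 rose. This was Calcoco2, an autophagy receptor 82.4 kb from the cluster, at 36.5, 33.6 and 37.1 CPM with wild-type KBP and 45.1, 46.3 and 48.6 CPM with KBP(KK/RR). Its groups were well apart (log2 fold change 0.39, SE 0.05, edgeR adjusted p = 2.63e-04), and the highest adjusted p with any library left out was 0.00707. Near HoxC, 21 were tested, 0 rose and 2 fell. Itga5, an integrin 307 kb away, went from 150 ± 6.49 to 121 ± 4.99 CPM (log2 fold change -0.30, SE 0.04, edgeR adjusted p = 3.92e-04). Nckap1l, 417 kb away, went from 13.9 ± 0.888 to 11.4 ± 0.686 CPM (-0.28, SE 0.08, adjusted p = 0.0463). With the length and GC trend removed, Npff (-0.92, adjusted p = 0.0413) and Prr13 (-0.18, adjusted p = 0.0155) near HoxC were called as well. The call of Nckap1l was lost under upper-quartile scaling (0.0596) and when any of 4 libraries was left out, namely wild-type KBP replicate 2 (0.188), wild-type KBP replicate 3 (0.132), KBP(KK/RR) replicate 5 (0.133) or KBP(KK/RR) replicate 6 (0.197).

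No neighbour of HoxA (4 tested) or HoxD (2 tested) was called, where 3.12% of all tested genes were. Evx1, the homeobox gene next to Hoxa13, had 19, 14 and 13 counts with wild-type KBP and 24, 20 and 35 with KBP(KK/RR). Each KBP(KK/RR) library was above each wild-type one, at a log2 fold change of 0.74 (SE 0.28, edgeR adjusted p = 0.155). Such a separation was seen in 22.4% of all tested genes. Evx2, beside Hoxd13, was at 0 in all 6 libraries.

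**Figure D4:**
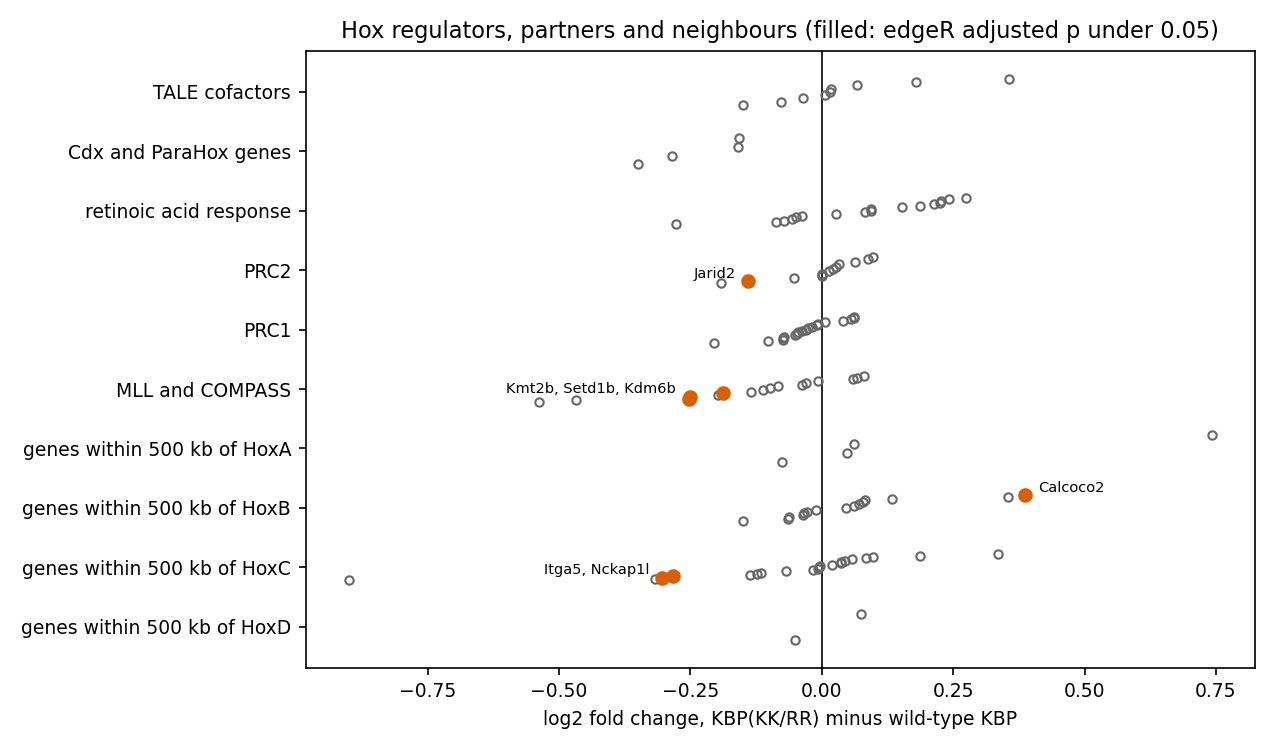
Log2 fold change, KBP(KK/RR) minus wild-type KBP, of the tested genes in 6 lists of Hox cofactors and regulators and of protein-coding genes within 500 kb of each cluster (1 point per gene). Filled points passed an edgeR adjusted p under 0.05: Jarid2, Kmt2b, Setd1b, Kdm6b, Itga5 and Nckap1l lie below 0 and Calcoco2 above.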

How the data were processed

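Total RNA of 6 libraries was depleted of ribosomal RNA (RiboZero) before library construction with ScriptSeq v2, per the labels' protocols. The submitters' processing notes name bcl2fastq, TopHat, HTSeq and DESeq2, with mm10 and GRCm38 as builds. Versions, annotation and strand setting were not given in the sources used here. One deposited table gives raw counts by gene symbol. The other gives a normalized signal that the authors made, by its values, by dividing each count by 1 factor per library. Whole reads came back for 100% of its values above 0 (tolerance 0.01), 0 of them different from the raw counts, and the test on them called the same number of genes, 448.

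The raw counts were tested as deposited with edgeR 4.0.16 under R 4.3.3 (TMM, filterByExpr, robust glmQLFit and glmQLFTest with group as the term) over all genes. The SE was taken as the size of the log2 fold change over the root of the F statistic, and intervals are at 95%. CPM are on TMM-scaled totals. With totals of 24131743 to 32160411 counts, precision is lowest for genes of few counts, and intervals and limits from counts cover counting error only. Replicates differed by more than counting noise (chi-square per degree of freedom 2.70 to 7.17), so none was merged in the fits. The Hoxb5 ratio pooled the libraries of each group. The fit was tested on simulated data.

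Symbols were matched to GENCODE M21 on GRCm38 (21751 by symbol, 1277 by synonym, 392 not), for length, position and overlap. Promoter and miRNA sequences are from RefSeq (GRCm38.p6).

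The Hox members and the other lists were chosen with earlier results of these data known. Values in every library are given for called Hox genes, the 3 highest per kilobase in each cluster and the 8 with the smallest p; in other lists called genes or else the 2 with the smallest p are named. A gene that this rule names is not reported here, and all tests, counts and sums include it. Border genes are those the annotation places within 500 kb, as a shorter hand-written list held a gene that is not near a cluster. Alternatives were DESeq2 1.42.0, limma 3.58.1 (voom, and a fit to the authors' normalized signal as log2 with 1 added), other scalings and filters, a length and GC trend removed (splines, 5 degrees of freedom), a threshold of 0.1 and each library left out; the test on recovered reads was chosen after seeing the data.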

Additional observations from a re-analysis of the deposited data

How the results depend on the processing

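Hox genes called were 0 under all 17 alternatives, with 12 to 39 Hox genes tested. Some of these could not have added a call. DESeq2 gave no Hox gene an adjusted p, and the recovered reads repeat the raw counts. The threshold of 0.1 reads the main fit, where the smallest edgeR adjusted p of a Hox gene was 0.302. The smallest adjusted p of a tested Hox gene over all alternatives was 0.162. Values from the recovered reads repeat the main fit and are counted among the alternative values below. Of 190 alternative values of single Hox genes, 186 kept their direction and 4 did not: without wild-type KBP replicate 2 the log2 fold changes of Hoxa10 and Hoxd13 were -0.041 and -0.067, leaving out wild-type KBP replicate 3 gave Hoxb1 0.10, and leaving out KBP(KK/RR) replicate 6 gave Hoxd13 -0.17. With each library left out in turn, Hoxa10 ranged from -0.041 to 0.33, Hoxd13 from -0.17 to 0.32 and Hoxb1 from -0.74 to 0.10. Another 9 kept their sign, with Hoxa3 from -0.52 to -0.12, Hoxa4 from 0.14 to 0.59, Hoxa5 from 0.11 to 0.44, Hoxa7 from 0.038 to 0.53, Hoxa11 from 0.0051 to 0.57, Hoxb9 from -0.14 to -0.072, Hoxb13 from 0.34 to 0.81, Hoxc13 from 0.059 to 0.19 and Hoxd11 from 0.51 to 0.88. Without KBP(KK/RR) replicate 6 Hoxa11 did not pass the filter, so its range rests on the other fits. The median over the tested Hox genes ran from 0.10 to 0.21, and all 40 alternative cluster sums moved by under 1 SD. With 1 of 3 libraries left out, a group mean cannot move by 1 SD of that group. Only the sums under other scalings could therefore have moved further. Genes called among all tested numbered 966 with every gene of at least 1 count, 690 with the length and GC trend removed, 823 at an adjusted p under 0.1 and 122 to 767 with 1 library left out, against 448; the cause was not tested. Those counts were 174 and 277 without wild-type KBP replicates 2 and 3, and 767, 281 and 122 without KBP(KK/RR) replicates 4, 5 and 6. Low counts limit what can be said of Hox genes, of which 26 did not pass the filter. No paired analysis was made, as the labels do not say whether libraries of the groups were made in pairs.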
